A study of Mus musculus with 9 samples.

Results

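The transcripts described here were low in an uninduced Zscan4-ERT2 clone of mouse embryonic stem (ES) cells and higher again after tamoxifen, and they were read by 92 of the 42006 distinct array probes. On the scale used below for levels, their signal fell in the uninduced clone by up to 5.97-fold against the control clone. With tamoxifen it came back by up to 4.09-fold. By group means on that scale, the return stopped short of control at 68 of the 92 and passed it at 24, with 15 within 0.1 of control. The split depends on how the probes were chosen, since the rule asked for a smaller rise (0.5) than fall (1) and used all 3 groups. In induced cells 50 of the 92 probes were below the control level, as 18.4% of all tested probes were, and 13 above it, as 21.6% were (limma, adjusted p below 0.05). For these transcripts the median return was 72.9% of the fall on the log2 scale.

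ES cells are cultured cells of the early embryo that keep the ability to form all tissues of the body. Zscan4 is a zinc finger gene of the 2-cell mouse embryo that ES cells switch on only in passing, in a small part of the culture, and it is known for its role in telomere maintenance. A protein fused to ERT2, a mutated estrogen receptor domain, is held inactive until tamoxifen or a related ligand binds it, so that tamoxifen acts as a switch for the fused protein.

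All cells were of the ES line V6.5, a hybrid of C57Bl/6 and 129. The control group was clone #2, transfected with a control and grown for 3 days without tamoxifen. Both other groups were clone #18, transfected with pCAG-Zscan4-ERT2, which was grown for 2 days without tamoxifen (Tmx-) or for 2 days with 200 nM tamoxifen (Tmx+). Each group had 3 arrays, all cells were grown on gelatin with LIF, and each genotype was represented by 1 clone. Clone, transgene and days of culture therefore cannot be told apart in Tmx- against control. The control clone was not given tamoxifen on any array, so effects of the drug and of the activated fusion protein cannot be told apart in Tmx+ against Tmx-. In Tmx+ against control, clone, transgene, tamoxifen and days of culture all differ, and they cannot be told apart there either. The labels do not say whether replicates were separate cultures, and if they were not, the p-values measure only technical spread.

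On each two-colour array Cy3 marked the ES cell RNA and Cy5 a shared reference, which per the labels was a pool of RNA from 11 cell lines mixed with RNA of 129 ES cells. Levels are given below as M, which is log2 of Cy3 over Cy5 after background correction and loess, and a difference of 1 in M is a 2-fold difference. The arrays had mean Cy3 intensities of 1243.1 to 2151.4, with median local backgrounds of 43 to 47. Arrays of a group correlated at r of 0.992 to 0.995 across tested probes, except Tmx- replicate 1, which correlated with its group at 0.982 and had a residual SD of 0.121 against 0.0504 to 0.0777 on the other arrays.

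The probes were chosen by the measured values themselves, in the ratio that Agilent's software computes. A probe was kept if it was well above background in Cy3 on all control and Tmx+ arrays, if the Tmx- mean was at least 1 (log2) below control, if the Tmx+ mean was at least 0.5 above Tmx-, and if the highest Tmx- array lay below every control and every Tmx+ array. The first condition left 22938 probes, the second 148, the third 95 and the last 92. On this scale the fall ran from -4.09 to -1.0 with a median of -1.37, and the rise from 0.50 to 2.96 with a median of 1.06. There was no gap at the thresholds. The smallest fall inside was -1.0041 and the nearest probe outside had -0.987, the smallest rise inside was 0.5005 and the nearest outside had 0.4862, and 18 probes lay within 0.1 of the threshold on the fall. The fall and the rise are thus descriptions. The difference of Tmx+ from control is their sum, so it is given as a description too, with its SE and with counts of limma calls that support nothing by themselves.

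No gene can be named. Among 42034 spots per array, leaving out control spots, 0 had a gene name, 0 probe IDs were in the mouse gene table, and 0 of the 92 probes had an exact match of 30 bases in the RefSeq promoter (GRCm38.p6) or miRNA tables. The defining genes of ES cells and Zscan4 itself could not be read for the same reason. Each probe is a 60-base oligonucleotide, and its sequence is what identifies its transcript.

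The 6 probes with the most extreme differences in M in each comparison are shown first, since the levels below turn on them. They are written 5′ to 3′ as the scanner files give them, and capitals mark a stretch of 19 bases that 2 of them share.
Z00075380-1: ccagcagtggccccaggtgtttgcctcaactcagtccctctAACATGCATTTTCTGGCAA
Z00053992-1: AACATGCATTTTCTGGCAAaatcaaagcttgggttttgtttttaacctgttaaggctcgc
Z00003224-1: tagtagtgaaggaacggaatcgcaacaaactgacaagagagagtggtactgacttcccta
Z00045409-1: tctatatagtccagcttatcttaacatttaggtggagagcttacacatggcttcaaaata
Z00059689-1: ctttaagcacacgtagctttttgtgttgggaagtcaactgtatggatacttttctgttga
Z00075020-1: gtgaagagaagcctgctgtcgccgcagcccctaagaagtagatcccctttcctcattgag

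The deepest falls in M among the 92 were at Z00075380-1 and Z00053992-1, whose sequences overlap end to end: the last 19 bases of the first are the first 19 of the second. Probe Z00075380-1 had M of 1.67, 1.60 and 1.62 in the control arrays, -0.92, -0.98 and -0.95 in Tmx-, and 0.95, 0.95 and 0.98 in Tmx+. The groups lay far apart, with Tmx+ between the other groups. Probe Z00053992-1 had 1.56, 1.54 and 1.58 in control, -0.66, -0.77 and -0.76 in Tmx-, and 1.00, 0.98 and 0.96 in Tmx+. Both gave the same course, with the induced arrays between the other groups. Their difference from control was -2.58 (SE 0.04) and -2.29 (SE 0.04) in uninduced cells. In induced cells -0.67 (SE 0.04) and -0.58 (SE 0.04) were left. Raw Cy3 intensity of Z00075380-1 was 11546.1 to 13563.3 in control, 1932.9 to 2503.4 in Tmx- and 7465.4 to 10297.7 in Tmx+, so the fall did not start near background.

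The largest rise in M among the 92 was at Z00003224-1, which passed beyond the control level. It had M of 1.03, 1.1 and 1.21 in control, -0.39, -0.45 and -0.46 in Tmx-, and 1.57, 1.61 and 1.62 in Tmx+. Every induced array was above every control array, and the uninduced arrays were below both. The rise was 2.03 (SE 0.05), and the excess over control 0.49 (SE 0.05). Only 1 of the 24757 tested probes rose by more.

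The highest level relative to control, in M, was at Z00045409-1. It had M of -0.97, -0.99 and -0.87 in control, -1.81, -2.01 and -1.96 in Tmx-, and -0.47, -0.45 and -0.41 in Tmx+. The 3 groups did not overlap, and the induced arrays lay closest together. Its excess over control was 0.50 (SE 0.06), 1.42-fold.

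At the other end, Z00059689-1 and Z00075020-1 stayed more than 2-fold below control in induced cells, as 0.889% of tested probes did (called lower and at least 2-fold). In M they were the only 2 of the 92 to do so. In Agilent's ratio others of the 92 did too, with -1.66 at Z00027751-1 and -1.64 at Z00030610-1. Probe Z00059689-1 had -0.14, -0.13 and -0.14 in control, -1.65, -1.75 and -1.80 in Tmx-, and -1.19, -1.20 and -1.14 in Tmx+. Probe Z00075020-1 had -0.90, -1.0 and -0.92 in control, -2.50, -2.60 and -2.54 in Tmx-, and -1.92, -1.97 and -1.95 in Tmx+. In both, the induced arrays lay nearer to the uninduced arrays than to control. The differences left were -1.04 (SE 0.04) and -1.01 (SE 0.04).

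The median course of the 92 probes was shared by every array of a group. Single probes did not all keep it in M. At some, Tmx- and Tmx+ arrays overlapped, as at Z00000974-1 with -1.23 in Tmx- replicate 2 and -1.46 in Tmx+ replicate 2. In bulk RNA, fewer cells with a transcript and less of it per cell cannot be told apart. The median M minus the control mean was -0.96, -0.89 and -0.93 in Tmx- replicates 1, 2 and 3, and -0.23, -0.28 and -0.23 in Tmx+. The rule fixed the place of Tmx- below both other groups, but not the order of Tmx+ and control. On M, as on the scale of the rule, all 92 probes were below the lowest control array on each Tmx- array, as 18.6% of tested probes were. The correlation of a single probe with the median course of the 92, over the 9 arrays, ran from 0.62 to 0.997 with a median of 0.938, a description in which all points share the arrays that chose the probes.

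In M the median difference was -0.91 in Tmx- against control, with a range from -2.58 to -0.24, and 0.64 in Tmx+ against Tmx-, with a range from 0.10 to 2.03. The medians over all 24757 tested probes were near 0, at -0.0002 and 0.0092. By adjusted p below 0.05 in limma, 89 of the 92 probes were called lower in Tmx- than control, against 11.1% of tested probes, and 88 were called higher in Tmx+ than Tmx-, against 21%. The rule used both contrasts, so nothing is read from these counts. All 92 passed the filter for testing, which the rule made certain.

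The rule set no limit on the level in Tmx+ against control, but its lower minimum for the rise (0.5) than for the fall (1) lets in partial returns. The median difference of Tmx+ from control was -0.235 in M, with quartiles of -0.52 and 0.02, against 0.0088 over all tested probes. Against control 50 of the 92 (54.3%) were lower in Tmx+, where 18.4% of tested probes were, and 13 (14.1%) were higher, where 21.6% were (limma, adjusted p below 0.05). The remaining 29 were not called, which does not show that they equalled control. Both groups entered the rule through the other contrasts, so these counts describe the chosen probes. All 3 Tmx+ arrays lay below the 3 control arrays, without overlap, at 54 of the 92, where 26.6% of all tested probes did. They lay above them at 13 of the 92, where 32.1% of all tested probes did, and 25 probes had arrays that overlapped. With the Cy3 channel alone, without the reference, 34 of the 92 were called lower and 4 higher, where 7.17% and 4.71% of all tested probes were.

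Return and size of the fall are best given side by side, since they share the Tmx- arrays. The return was under 50% of the fall at 26 probes, 50% to 100% at 42 and 100% or more at 24, with quartiles of 46.6% and 101%. Of the 50 probes whose rise was at least 1 on the scale of the rule, 13 were called above control, 16 below and 21 not called, and their median difference from control in M was -0.05. Of the 42 with a smaller rise, 0 were called above control, 34 below and 8 not called, with a median of -0.44. The rise is part of the difference from control, so this split describes how the counts depend on the minimum and shows nothing more.

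The chosen transcripts covered a wide range of brightness, and this bears on the size of their changes. Mean raw Cy3 intensity in control ran from 82.0 to 22352.7 with a median of 192.0, and 49 of the 92 were under 200. At the 16 probes of 1000 or more, the median fall was -1.39 in M and -1.41 in Agilent's ratio, and the median rise 1.12 and 1.09, so that the scales gave nearly the same size. At the 49 probes under 200, the median fall was -0.62 in M and -1.27 in Agilent's ratio, and the median rise 0.46 and 1.06. The size of the change of the dim probes thus depends on the scale, and which step of the processing sets it was not tested. Applied to M, the same rule kept 32 probes, all of them among the 92, with a median control intensity of 1017.9. Of these 32, in Tmx+ 22 were called below control, 3 above and 7 not called.

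The Tmx- level of some dim probes is uncertain. On the Tmx- arrays 77 of the 92 were well above background on all 3, 5 on 2, 7 on 1 and 3 on none. Of those 3, Z00024966-1 and Z00006908-1 had the largest falls in Agilent's ratio, -4.09 and -3.23, and are named because of these values. A floor was set at the lowest signal of any probe well above background on each Tmx- array, or the probe's own signal where higher. Against it Z00006908-1 was 1.92-fold higher in control and 1.68-fold higher in Tmx+. For Z00024966-1 the folds were 1.94 and 1.24. At the third, Z00000974-1, the probe's own signal was the higher on every Tmx- array, and no fold is drawn from it. A signal can thus pass this floor without counting as well above background, so the folds are not strict lower bounds. Mean log2 Cy3 of Z00006908-1 was 7.23 in control, 6.27 in Tmx- and 7.03 in Tmx+. That of Z00024966-1 was 7.36, 6.37 and 6.71, and that of Z00000974-1 was 6.76, 6.5 and 6.62 in the same order. Raw Cy3 of Z00006908-1 was 116.8 to 140.6 in control, 65.9 to 78.0 in Tmx- and 101.4 to 128.3 in Tmx+, without overlap between Tmx- and either other group. The rule asked for this lack of overlap in Agilent's ratio, so nothing is read from it.

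The differences lay mostly in the sample channel. With each channel taken by itself, as log2 signal minus the median of its array, the median difference of the 92 between Tmx- and control was -0.92 in Cy3 and -0.03 in Cy5. Between Tmx+ and Tmx- it was 0.56 in Cy3 and -0.03 in Cy5. The Cy3 difference was larger than the Cy5 difference at all 92 probes for the fall and at 89 for the rise. A limma fit of Cy3 alone called fewer of the 92 than M did. It called 72 lower in Tmx- than control, where 1.57% of all tested probes were, and 61 higher in Tmx+ than Tmx-, where 4.78% were. The reference is the same RNA on every array, and its signal at single probes still differed between groups by -0.43 to 0.28, with -0.43 at Z00053992-1 for Tmx- minus control and 0.28 at Z00003224-1 for Tmx+ minus control.

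The arrays lay on 3 slides, with the control arrays and Tmx- replicate 1 on the first, Tmx- replicates 2 and 3 and Tmx+ replicates 1 and 2 on the second, and Tmx+ replicate 3 on the third. Within the first slide all 92 probes were lower in Tmx- than control, with a median of -0.96. Within the second, 89 were higher in Tmx+ than Tmx-, with a median of 0.58, and these comparisons use different Tmx- arrays. The 3 exceptions were Z00000974-1, Z00015729-1 and Z00065755-1, with -0.11, -0.004 and -0.01. No slide held both Tmx+ and control arrays, so their difference could not be read within a slide. Without Tmx- replicate 1, the array that differed most from the others of its group, the rule found 104 probes in place of 92.

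Relative to the reference, the chosen transcripts leaned to the low side in control cells. In control 33 of the 92 were above the reference level, 35.9%, against 50.9% of tested probes. At least 2-fold below the reference were 32, or 34.8%, against 11.4% of tested probes, and at least 2-fold above it were 9, or 9.78%, against 5.35%. The control level took part in the choice, so this is a description. In Tmx- 11 of the 92 were above the reference, and in Tmx+ 28. The lowest control level was -5.41 and the highest 1.63.

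Some of the 92 probes share sequence, and the sizes of their changes are set side by side here. Of the 92, 8 fell into 4 pairs that share at least 15 bases on the same strand, and 0 pairs shared as many on opposite strands. The first pair is given above, and in the other 3 the shared stretch is in capitals.
Z00010007-1: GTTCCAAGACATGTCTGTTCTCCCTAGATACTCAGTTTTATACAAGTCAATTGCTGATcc
Z00075584-1: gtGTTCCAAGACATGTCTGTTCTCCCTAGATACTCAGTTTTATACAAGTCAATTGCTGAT
Z00061371-1: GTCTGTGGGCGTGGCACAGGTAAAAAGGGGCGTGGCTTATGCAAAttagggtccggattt
Z00031278-1: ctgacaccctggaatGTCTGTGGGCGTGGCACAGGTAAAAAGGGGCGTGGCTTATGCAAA
Z00075832-1: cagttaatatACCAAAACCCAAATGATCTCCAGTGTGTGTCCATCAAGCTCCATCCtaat
Z00033344-1: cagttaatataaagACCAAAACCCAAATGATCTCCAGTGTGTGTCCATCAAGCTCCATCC

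The rule fixed the directions of the fall and the rise for all 92 probes, so nothing is read from shared directions. The sizes differed more in some pairs than in others. Probes Z00010007-1 and Z00075584-1 share 58 bases, lay far below the reference in control (-5.41 and -5.37), fell by 1.18 and 1.21, and were left at -0.53 and -0.54 from control in Tmx+. Their control arrays were tight, -5.45, -5.38 and -5.41 for the first and -5.35, -5.39 and -5.37 for the second, and neither overlapped any Tmx+ array, of which the highest were -5.80 and -5.79. Probes Z00061371-1 and Z00031278-1 share 45 bases, fell by 0.89 and 0.62, rose by 0.70 and 0.53, and had a difference left of -0.18 and -0.08. The first had M of 0.78, 0.77 and 0.64 in control, -0.22, -0.18 and -0.08 in Tmx- and 0.70, 0.52 and 0.42 in Tmx+, where the induced and control arrays overlap. Probes Z00075832-1 and Z00033344-1 share 46 bases, and the second has 4 further bases ahead of the shared stretch. They fell by 0.68 and 0.62, rose by 0.29 and 0.28, and had -0.39 and -0.35 left, a partial return in both. Partners share 45 to 58 bases in the pairs of this paragraph and 19 in the pair given above, and are not counted as separate evidence. No other probe that was tested shared 20 bases with any of the 92.

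Base composition was close to that of the array. The median GC content of the 92 was 43.3%, against 45% over tested probes. The hexamer AATAAA, the common signal for cutting and polyadenylating messenger RNA, stood on the probe strand of 11 of the 92, or 12%, against 7.68% of tested probes, and ATTAAA, its most frequent variant, of 1, or 1.09%, against 3.33%. On the array the 92 were spread over its 4 quadrants with 20 to 25 in each.

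The probes outside the 92 whose M over the 9 arrays was most like the median course of the 92 were Z00075252-1 (Pearson r = 0.996), Z00075096-1 (r = 0.995) and Z00024201-1 (r = 0.994). Probe Z00075096-1 had M of -2.29, -2.29 and -2.24 in control, -3.29, -3.19 and -3.14 in Tmx- and -2.51, -2.60 and -2.50 in Tmx+. It fell by 0.93 and rose by 0.67, close to the medians of the 92. At Z00075252-1 the same course had a fall of 0.24 and a rise of 0.17, and at Z00024201-1 a fall of 0.69 and a rise of 0.50.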

How the data were processed

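The deposited data were 9 scanner files and 1 value table. Per the file headers, spot and background intensity came from Agilent Feature Extraction 9.5.1.1, and LogRatio is the log10 of red over green. Per the labels, Cy3 was the sample and Cy5 the reference on every array, so the sign was turned. Differences between arrays in the deposited value table follow the sign-turned log10 ratios, and its centring is unknown. It holds 25030 spots, 68 of the 92 probes among them.

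Intensities were corrected with normexp (offset 50), which draws dim probes toward 0, and normalized by loess in limma 3.58.1 (R 4.3.3) to M on the log2 scale. Control spots, flagged spots (4 to 16 per array) and 17249 dim probes were left out. The tested 24757 passed Agilent's background test in every array of at least 1 group. All 9 arrays entered 1 limma fit, with Benjamini-Hochberg adjusted, two-sided p-values over all tested probes. The steps were tested on simulated data.

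The probes and lists were chosen with earlier results of these data known. Named probes are the 2 extremes per comparison and direction. Gene and cell type lists could not be used, since no probe has a gene name. Same-numbered arrays did not deviate together (r from -0.403 to 0.173), and the arrays were not paired by number. Slides also differ within Tmx- and within Tmx+, so this cannot show that the cultures were unpaired. The alternatives are given at the end.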

Additional observations from a re-analysis of the deposited data

How the results depend on the processing

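The counts of the 92 probes called were within 1.5 times of the values above under offset 10, Agilent's processed ratio, median centring, no filter on dim probes and slide as a fixed or random block. The Cy3 channel alone called 4 higher than control in Tmx+, where 4.71% of all tested probes were. The deposited value table, which holds fewer of the 92, called 8 higher and 32 lower, where 12.9% and 11.7% of all its probes were. Median centring took the share of all tested probes called lower from 11.1% to 3.99% in Tmx- and from 18.4% to 10.2% in Tmx+ against control. The median difference of Tmx+ from control was -0.387 with Agilent's processed ratio, -0.185 with median centring, -0.295 with slide as a fixed block and -0.316 in the value table; the cause was not tested. The rule found 50 probes with a rise of at least 1, 37 with a fall of at least 1.5, 32 on M and 49 on M with offset 10. With the replicate number as a block, which the arrays' deviations do not bear out, 88 were lower in Tmx-, 88 higher in Tmx+, and 12 above and 49 below control. The shares of all tested probes were 8.97%, 18.9%, 19.3% and 16.9% in the same order. Leaving out any 1 array gave 87 to 92 lower in Tmx-, 83 to 87 higher in Tmx+, and 10 to 13 above and 46 to 51 below control. The shares of all tested probes were then 7.28% to 14.9%, 17% to 25.7%, 16.8% to 27.6% and 14.7% to 22.7%. The median difference from control was -0.255 to -0.216, and the rule found 87 to 104 probes. At the 49 probes with control Cy3 intensity under 200, the size of change depended on the scale, and the cause was not tested.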
